A study of Mus musculus with 9 samples.

Results

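The genes described here encode the subunits of the mitochondrial respiratory chain and of ATP synthase that are carried in the nucleus. They were taken by name from the table of all genes, as protein-coding genes whose symbol begins with Nduf followed by a, b, c, s or v and a digit, with Uqcr, with Atp5 or with Cox and a digit of 4 to 8, or is one of Sdha, Sdhb, Sdhc and Sdhd. This gave 85 of 54532 gene IDs under 84 symbols, since Atp5o is listed under a pair of IDs. By name, 37 belong to complex I, 4 to complex II, 8 to complex III, 18 to complex IV and 18 to complex V. The pattern misses Ndufab1 of complex I, Cyc1 of complex III and the electron carrier Cycs, and it assigns Ndufa4 to complex I, although the protein sits in complex IV. Cox7a2l and Atp5s are related factors, not structural subunits.

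RNA was sequenced from HT22 cells, an immortalized line derived from mouse hippocampal neurons with a wild-type genotype in the labels, in 3 groups of 3 libraries. OGE cells were deprived of oxygen and glucose for 2 h (OGD) and reoxygenated for 24 h with extracellular vesicles from mesenchymal stem cells made from human induced pluripotent stem cells (hiPS-MSC-EVs). OGP cells had the same deprivation and reoxygenation with PBS in place of the vesicles. Control cells were left untreated. The medium after deprivation is described differently in the paper and in the labels. Whether OGE and OGP cells differed in serum, from each other or from control, is thus not known. The paper calls the libraries biological replicates without saying that they came from separate cultures, so the p-values here cover only the variation among these libraries, and that may be technical.

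The respiratory chain sits in the inner mitochondrial membrane and passes electrons from NADH, through complex I, and from succinate, through complex II, to ubiquinone, complex III, cytochrome c and complex IV, which reduces oxygen to water. Complexes I, III and IV pump protons, and complex V, ATP synthase, uses the return of these protons to make ATP. Most subunits are encoded in the nucleus and imported, while the mitochondrial genome encodes a few hydrophobic subunits at the core of complexes I, III, IV and V. Neurons depend on this pathway for most of their ATP, and oxygen and glucose deprivation withholds both its terminal acceptor and its fuel.

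Expression was measured as FPKM, fragments relative to gene length and library depth. A gene was tested if its mean over the 9 libraries was at least 0.5 FPKM, which 13245 genes passed. Among the respiratory chain genes 78 passed, 36 of complex I, 4 of complex II, 8 of complex III, 13 of complex IV and 17 of complex V. Most were abundant, with a median of 58.6 FPKM over the 78 genes, against 7.11 FPKM over all genes tested. By complex, the median level per gene was 106.6 FPKM in complex IV, 71.0 in complex III, 69.2 in complex V, 47.7 in complex II and 42.8 in complex I. The top levels were 393 FPKM for Cox6a1 of complex IV and 347 FPKM for Atp5b, the catalytic beta subunit of ATP synthase. The 7 genes left untested were Cox4i2, Cox6b2, Cox7b2, Cox8b, Cox8c, Ndufa4l2 and the second Atp5o ID, and none of them exceeded 0.654 FPKM in any library.

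Several complex IV subunits exist as alternative copies that are used in different tissues or under low oxygen. HT22 cells expressed the ubiquitous copies in all 3 groups. Cox4i1 ranged over the 9 libraries between 167 and 277 FPKM, whereas Cox4i2, the copy linked to low oxygen and to lung, stayed between 0 and 0.299 FPKM. Cox6a1 exceeded 300 FPKM in each library, while Cox6a2, the heart and muscle copy, measured 0.907, 0.434 and 1.80 FPKM in OGE, 1.56, 1.71 and 1.36 FPKM in OGP and 1.35, 0.867 and 1.03 FPKM in control. Neither Cox6a2 nor Cox7a1, the muscle copy of Cox7a2, was called in any comparison, and their groups overlapped except for Cox6a2 in OGP against control. Cox7b exceeded 110 FPKM in each library and Cox7b2, a testis copy, stayed at or below 0.654 FPKM. Cox8a had 283 FPKM or more in each library, whereas Cox8c was listed at 0 throughout and Cox8b was above 0 in OGP replicate 3 alone. Ndufa4l2, a hypoxia-induced relative of Ndufa4, measured 0.102, 0.0539 and 0.0589 FPKM in OGE, 0.323, 0.334 and 0.505 FPKM in OGP and 0.105, 0.484 and 0.295 FPKM in control. Its OGE libraries were below every OGP and control library, but its mean of 0.251 FPKM was below the filter of 0.5 FPKM and it was not tested. Subunit c of ATP synthase, the ring that turns with the proton flow, came mainly from Atp5g2 and Atp5g3, at 122 to 216 FPKM and 76.1 to 169 FPKM over the 9 libraries, and less from Atp5g1, at 19.8 to 28.1 FPKM.

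**Figure D1:**
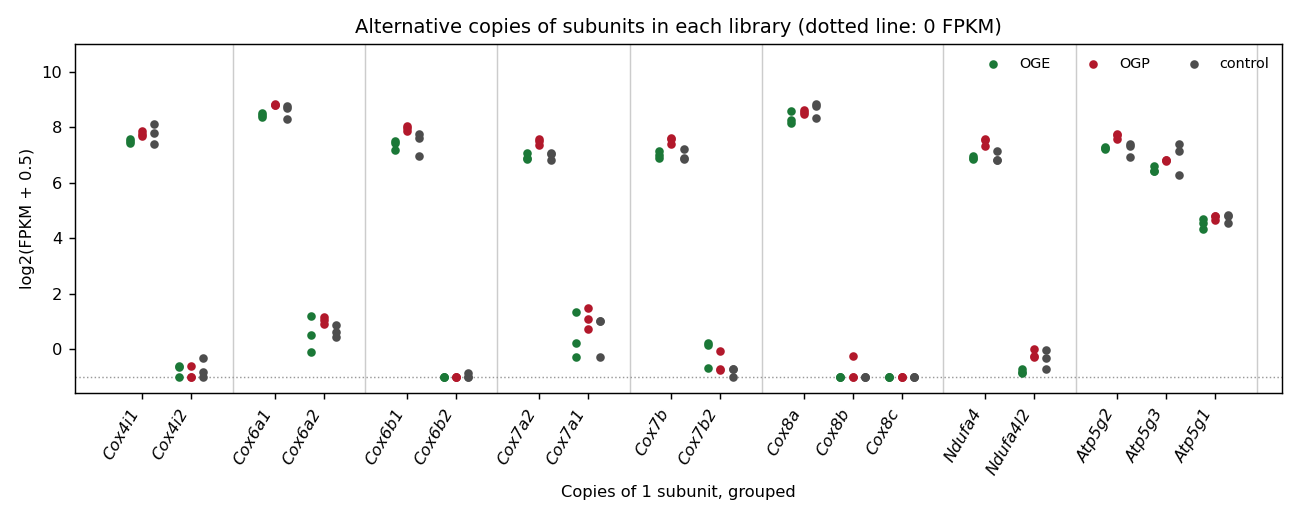
Level of each copy of subunits with alternative copies, as log2(FPKM + 0.5), in every library (points) of OGE, OGP and control cells. In each of the 7 sets before the Atp5g genes 1 copy lies far above the others in all 9 libraries, and the 3 Atp5g copies lie closer together.

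The libraries held 15026700 to 19476806 reads in genes, and tested respiratory chain genes had at least 3 reads in every library. The labelled cell type was weakly borne out, since 2 of 11 neuron markers, Tubb3 and Map2, reached a mean of 0.5 FPKM, and Rbfox3, Syt1, Snap25, Stmn2 and Slc17a7 were near 0. Summed over the 11 markers, the level was 13.6 to 17.6 FPKM in OGE, 12.5 to 13.5 in OGP and 7.98 to 10.5 in control. The 2 markers tested differed in direction in OGE against OGP, with log2 fold changes of 0.35 and -0.51 and a median of -0.08. Only the one that fell passed the adjusted p, beside 10.2% of all genes. The mesenchymal marker Vim made most of a sum over 6 markers of 438 to 498 FPKM in OGE, 550 to 609 in OGP and 470 to 536 in control. Members of that list differed in direction, since in OGE against OGP Vim had a log2 fold change of -0.34, whereas Nt5e and Pdgfra were higher, at 1.23 and 0.62, and the median over the 5 members tested was 0.07. At most 1 of 6 markers each of astrocytes, microglia and muscle passed 0.5 FPKM, and none of 6 each of oligodendrocytes and endothelium did. The ones that passed, Slc1a3 of astrocytes, Tmem119 of microglia and Tnnt2 of muscle, had log2 fold changes of -0.64, -0.90 and 1.18 in OGE against OGP, each past the adjusted p and the 1.5-fold threshold. The part of these markers in the results was not tested. As in any bulk sample, fewer cells of a kind and less RNA per cell cannot be told apart. Control replicate 1 stood apart, because 33 of the 78 genes had their lowest value of all 9 libraries there. The matching share of all genes was not computed. Protein-coding genes up to 1000 bases as a class stood low there too, as given further on. The summed level of all 85 genes was 4972 FPKM in control replicate 1, against 6993 and 6351 FPKM in the other control libraries. Results that rest on this library are given with and without it.

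The first comparison asks whether reoxygenation with hiPS-MSC-EVs left a different mRNA profile from reoxygenation with PBS. Respiratory chain genes were lower in OGE than in OGP almost throughout. The summed level of the 85 genes was 5280, 4989 and 5624 FPKM in OGE and 6704, 7127 and 7202 FPKM in OGP, so the groups did not overlap. Their share of reads averaged 0.934% ± 0.0461 in OGE and 1.15% ± 0.0356 in OGP (SD, n = 3 each). The log2 fold change on the scale of log2(FPKM + 0.5), which understates the change of low genes, was negative for 76 of the 78 genes tested, with a median of -0.42, while the median over all 13245 genes was 0.00. With limma, 6 genes fell both by at least 1.5-fold and with an adjusted p no higher than 0.05, which together define a differentially expressed gene (DEG), and none rose. Among all genes tested 4.73% fell and 3.39% rose by that rule. At the adjusted p alone 29 of the 78 genes, or 37.2%, fell and none rose, beside 10.2% and 10.6% of all genes. In 60 of the 78 every OGE library lay below every OGP library, which held for 22.0% of all genes.

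**Figure D2:**
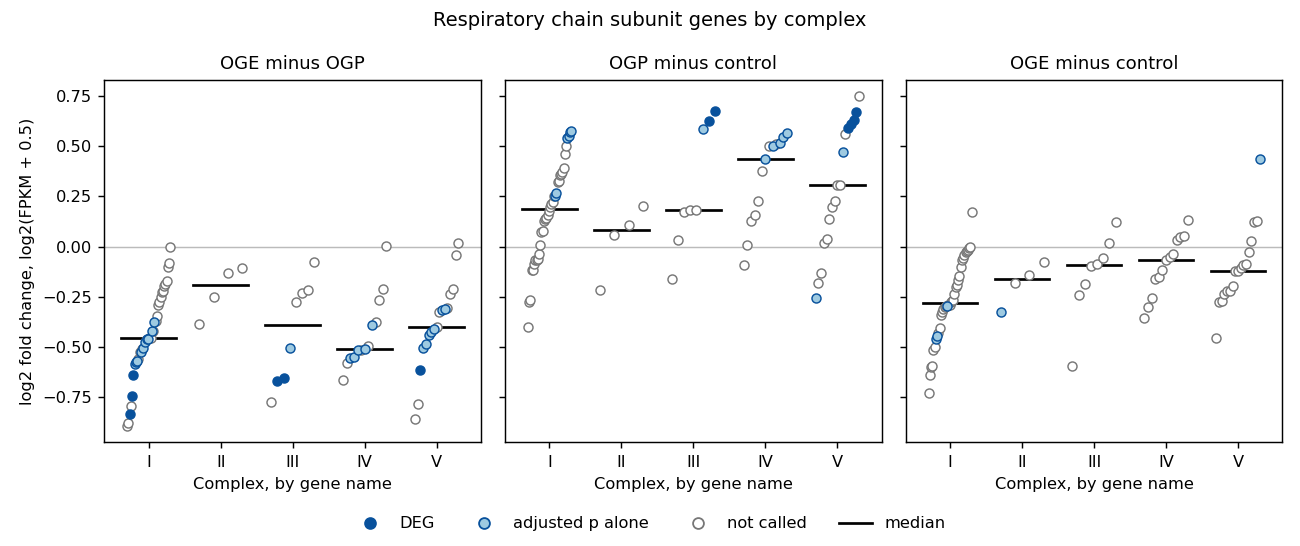
Log2 fold change of each tested respiratory chain gene (points), by complex, in OGE minus OGP, OGP minus control and OGE minus control. Filled points are DEGs, light points passed the adjusted p alone, open points were not called, and black lines are medians. In OGE minus OGP nearly every point lies below 0, with medians between -0.51 for complex IV and -0.19 for complex II.

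The decline was seen in each complex and differed in size between groups of subunits within a complex. Medians were -0.51 in complex IV, -0.46 in complex I, -0.40 in complex V, -0.39 in complex III and -0.19 in complex II. The adjusted p alone was passed by 13 of 36 genes of complex I, 3 of 8 of complex III, 5 of 13 of complex IV and 8 of 17 of complex V, and by 0 of 4 genes of complex II. In complex I the 28 accessory subunits had a median of -0.46 and the 7 core subunits, which carry the flavin and iron-sulfur clusters, one of -0.18. In complex III the 5 small subunits had a median of -0.66, and the core proteins and the Rieske subunit, 3 genes, one of -0.22. In complex V the medians were -0.49 for 7 membrane subunits and -0.36 for 4 peripheral stalk subunits. It was -0.31 for 5 subunits of F1, the part that holds the catalytic sites. Within F1, Atp5a1 and Atp5b were at -0.04 and 0.02, and Atp5c1, Atp5d and Atp5e at -0.41, -0.31 and -0.78. These differences between groups of subunits were not tested, and gene length, described further on, differs between them.

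Promoters of genes of this pathway are known for binding sites of NRF1, of ETS factors such as GABP, and of YY1. RefSeq promoters on GRCm38.p6, covering 250 bases before and 50 after the start site, were found for 68 of the 84 symbols. The motif GCGCANGCG, from the NRF1 site, occurred on either strand in 27.9% of these 68 promoters and in 6.42% of the promoters of 26957 other genes. The ETS core CCGGAAG occurred in 22.1% and 9.09%, and the YY1 motif AAGATGGCG in 8.82% and 1.48%. Respiratory chain genes were taken at the start nearest the deposited gene model, and the other genes at the first start listed. The other genes were not limited to those expressed here. Whether the difference in shares is particular to this pathway was thus not tested. The letters were chosen after the promoters had been seen, no motif contains another, and a match is a description of the sequence, not a site in use. Between the 25 promoters of genes that passed the adjusted p alone in OGE against OGP and the 43 others, the NRF1 motif occurred in 6 and 13 promoters, the ETS core in 3 and 12 promoters and the YY1 motif in 4 and 2. To show the motifs in place, the promoters of 4 genes are given, those with the smallest p in this comparison among the genes with a promoter in complexes I, II, III and V, with matches in capitals. The NRF1 motif of Ndufa5 begins at base -26 and that of Sdhd at base -79 from the start site, the ETS core of Sdhd lies on the other strand from base -46, and the YY1 motif of Atp5j2 begins at base 24 after the start. The window of Uqcr10 holds no match. Nor do those of Cox7a2, chosen by the same rule in complex IV, and of Ndufa10, the least changed gene with a promoter, which are not printed. The RefSeq start of Atp5j2 lies 521 bases and that of Ndufa5 323 bases from the end of the deposited gene model.
Ndufa5 (chr6:24527641-24527940, minus strand): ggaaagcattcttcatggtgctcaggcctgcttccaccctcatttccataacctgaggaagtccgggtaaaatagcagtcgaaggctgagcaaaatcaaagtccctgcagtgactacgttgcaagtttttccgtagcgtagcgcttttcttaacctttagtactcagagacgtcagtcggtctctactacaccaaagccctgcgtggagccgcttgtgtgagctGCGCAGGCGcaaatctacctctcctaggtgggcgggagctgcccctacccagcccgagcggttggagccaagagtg
Sdhd (chr9:50603800-50604099, minus strand): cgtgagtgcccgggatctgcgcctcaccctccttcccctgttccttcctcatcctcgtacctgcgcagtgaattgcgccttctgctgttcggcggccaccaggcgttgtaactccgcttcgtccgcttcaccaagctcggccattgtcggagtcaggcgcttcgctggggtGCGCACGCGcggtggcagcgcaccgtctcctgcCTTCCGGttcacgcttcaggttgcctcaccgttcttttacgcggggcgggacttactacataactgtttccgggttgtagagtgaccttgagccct
Uqcr10 (chr11:4704295-4704594, minus strand): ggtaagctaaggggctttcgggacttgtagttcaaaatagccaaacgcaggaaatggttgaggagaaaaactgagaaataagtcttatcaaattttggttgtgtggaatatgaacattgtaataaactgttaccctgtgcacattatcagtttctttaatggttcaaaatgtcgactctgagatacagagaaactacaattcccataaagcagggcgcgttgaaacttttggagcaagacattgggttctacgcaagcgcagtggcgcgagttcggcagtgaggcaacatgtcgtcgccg
Atp5j2 (chr5:145191492-145191791, minus strand): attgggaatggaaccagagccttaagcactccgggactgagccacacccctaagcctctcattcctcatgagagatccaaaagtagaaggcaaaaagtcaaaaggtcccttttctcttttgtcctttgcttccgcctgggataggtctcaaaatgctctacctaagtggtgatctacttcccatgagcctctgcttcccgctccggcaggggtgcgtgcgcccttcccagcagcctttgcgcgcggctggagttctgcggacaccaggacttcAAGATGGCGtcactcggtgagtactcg

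Complex I holds 3 of the 6 DEGs, all of them accessory subunits. Ndufa5, a subunit of the arm that binds NADH and ubiquinone (chr6:24518666-24528013), measured 53.1, 44.8 and 51.1 FPKM in OGE, 77.8, 91.3 and 98.1 FPKM in OGP and 57.7, 79.6 and 67.1 FPKM in control. Every OGE library was thus below every library of the other groups. Its log2 fold change in OGE against OGP was -0.83 (SE 0.13, limma adjusted p = 0.00273), the largest decline among the DEGs of these complexes. Ndufb11, a subunit of the membrane arm on the X chromosome (chrX:20615326-20617619), had 99.8, 90.5 and 99.5 FPKM in OGE, 150.4, 172 and 164 FPKM in OGP and 87.2, 131 and 120 FPKM in control. OGE and OGP did not overlap, at -0.74 (SE 0.14, limma adjusted p = 0.00623), while control replicate 1 was the lowest of all libraries. Ndufa13, also known as GRIM-19 (chr8:69894180-69902558), measured 50.1, 47.7 and 53.1 FPKM in OGE, 72.1, 83.3 and 80.5 FPKM in OGP and 57.0, 77.3 and 75.4 FPKM in control. The OGE libraries were again the lowest in each case, with a log2 fold change against OGP of -0.64 (SE 0.12, limma adjusted p = 0.00641). Ndufa13 shares coordinates with Yjefn3 on the same strand and Ndufb11 with Rbm10 on the opposite strand, and as the strand setting of the counting is not stated, reads in the shared bases cannot be told apart.

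The other 10 genes of complex I that fell at the adjusted p alone were Ndufa4, Ndufa6, Ndufa7, Ndufa9, Ndufb4, Ndufb5, Ndufb9, Ndufc1, Ndufs4 and Ndufv2. Ndufa4, which belongs to complex IV by its position, had 116, 117 and 124 FPKM in OGE, 159, 188 and 185 FPKM in OGP and 112, 139 and 112 FPKM in control, with OGP above both other groups. Its log2 fold change in OGE against OGP was -0.57 and that of the accessory subunit Ndufa6 was -0.58. Among the core subunits, Ndufv2 at -0.47 was the only one called by limma (adjusted p = 0.0327). Ndufs1, the largest iron-sulfur subunit, measured 12.5, 12.6 and 12.3 FPKM in OGE, 12.5, 13.9 and 13.3 FPKM in OGP and 11.2, 10.3 and 11.6 FPKM in control. Its OGE and OGP libraries overlapped, and the difference was -0.08 (SE 0.07). Ndufv1, the flavin-binding subunit, overlapped between the groups at -0.17 (SE 0.18).

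Complex II, the succinate dehydrogenase of the citric acid cycle, differed least. Sdha, its flavoprotein, measured 38.8, 41.5 and 46.5 FPKM in OGE, 49.7, 44.4 and 45.0 FPKM in OGP and 40.4, 46.6 and 46.8 FPKM in control, and the 3 groups overlapped. Its iron-sulfur partner Sdhb was at -0.25 (SE 0.11), with limma not calling it (adjusted p = 0.131). Sdhd, a membrane anchor with the NRF1 and ETS motifs shown above, had 97.5, 93.4 and 110.04 FPKM in OGE, 131, 137 and 125 FPKM in OGP and 92.4, 124 and 128 FPKM in control. OGE lay below OGP in each library, at -0.39 (SE 0.13), which limma did not call (adjusted p = 0.0603). The other anchor, Sdhc, measured 33.5, 34.7 and 33.5 FPKM in OGE, 35.7, 35.5 and 38.6 FPKM in OGP and 43.4, 46.1 and 38.8 FPKM in control. Its order, OGE below OGP below control, without overlap between neighbouring groups, differed from that of most genes of the chain.

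In complex III the small subunits changed more than the core proteins. Uqcrb, a subunit near the ubiquinone site (chr13:66900617-66905378), had 64.8, 50.7 and 69.9 FPKM in OGE, 86.5, 103 and 102 FPKM in OGP and 64.6, 59.7 and 57.3 FPKM in control. OGP stood above both other groups, which overlapped, and the log2 fold change in OGE against OGP was -0.66 (SE 0.13, limma adjusted p = 0.00684). Uqcr10, a small subunit beside the Rieske protein (chr11:4701973-4704342), measured 165, 137 and 155 FPKM in OGE, 229, 253 and 245 FPKM in OGP and 131, 188 and 169 FPKM in control. It fell by 0.67 on the log2 scale in OGE against OGP (SE 0.13, limma adjusted p = 0.00787), and OGP was again the top group. Uqcrh, the hinge protein that holds cytochrome c1 (chr4:116066965-116075071), had 90.0, 79.2 and 87.9 FPKM in OGE, 106, 133 and 127 FPKM in OGP and 62.5, 92.7 and 83.6 FPKM in control. The OGP libraries were above all others, and the decline in OGE of -0.50 passed the adjusted p with limma (0.0403) but not the fold. Uqcrh shares coordinates with the pseudogene Gm12854 on the opposite strand. By contrast Uqcrc1, a core protein, measured 40.2, 40.4 and 42.1 FPKM in OGE, 44.4, 41.9 and 43.2 FPKM in OGP and 40.8, 54.4 and 51.1 FPKM in control, with OGE and OGP overlapping at -0.08 (SE 0.10). Uqcrfs1, the Rieske iron-sulfur protein, was at -0.22 (SE 0.14) and was not called.

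No complex IV gene reached the fold threshold together with the adjusted p, although 5 passed the adjusted p alone, namely Cox6c, Cox7a2, Cox7a2l, Cox7b and Cox7c. Cox7a2, the ubiquitous copy of a small membrane subunit, had 132, 114 and 117 FPKM in OGE, 165, 181 and 188 FPKM in OGP and 112, 133 and 131 FPKM in control. OGP was above every other library, and the difference of OGE from OGP was -0.55 (SE 0.10, limma adjusted p = 0.00484). Cox7c, another small membrane subunit, measured 94.7, 94.0 and 93.8 FPKM in OGE, 119, 144 and 140.4 FPKM in OGP and 86.0, 103 and 84.1 FPKM in control, a difference of -0.51, with OGP again above every other library. Cox7b had 127, 118 and 141 FPKM in OGE, 167, 191 and 195 FPKM in OGP and 114, 149 and 117 FPKM in control, and differed by -0.52 between OGE and OGP. Cox5a did not share this pattern, with 36.8, 36.2 and 44.1 FPKM in OGE, 39.6, 39.1 and 37.7 FPKM in OGP and 28.6, 40.6 and 38.5 FPKM in control. Its groups overlapped and its log2 fold change in OGE against OGP was 0.00 (SE 0.13). Cox4i1 and Cox8a, at -0.27 and -0.21, were not called, nor were Cox6a1 at -0.38 and Cox6b1 at -0.58.

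In complex V the membrane subunits led and the catalytic beta subunit did not differ between OGE and OGP beyond its spread. Atp5j2, subunit f of the membrane part (chr5:145183698-145192062), measured 50.4, 48.3 and 50.9 FPKM in OGE, 68.4, 79.8 and 82.4 FPKM in OGP and 49.2, 54.0 and 49.2 FPKM in control. OGP was far above both other groups, which overlapped, and the log2 fold change in OGE against OGP of -0.61 (SE 0.09, limma adjusted p = 0.00143) had the smallest p of the 78 genes. Atp5l, subunit g (chr9:44912557-44920742), had 18.1, 16.7 and 20.5 FPKM in OGE, 23.2, 26.8 and 28.1 FPKM in OGP and 16.0, 17.7 and 16.8 FPKM in control, again with OGP above all others. Atp5mpl, a small proteolipid of the membrane part (chr12:111961375-111966977), measured 68.4, 63.6 and 54.4 FPKM in OGE, 78.5, 88.9 and 97.8 FPKM in OGP and 62.4, 61.7 and 47.2 FPKM in control. Atp5l at -0.49 and Atp5mpl at -0.51 passed the adjusted p alone in OGE against OGP, as did Atp5c1, Atp5f1, Atp5g2, Atp5h and Atp5j. Atp5b (chr10:128083273-128090391) had 320.1, 332 and 335 FPKM in OGE, 333, 317 and 323 FPKM in OGP and 358, 416 and 389 FPKM in control. Its OGE and OGP libraries overlapped at 0.02 (SE 0.08), and every control library was above them.

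**Figure D3:**
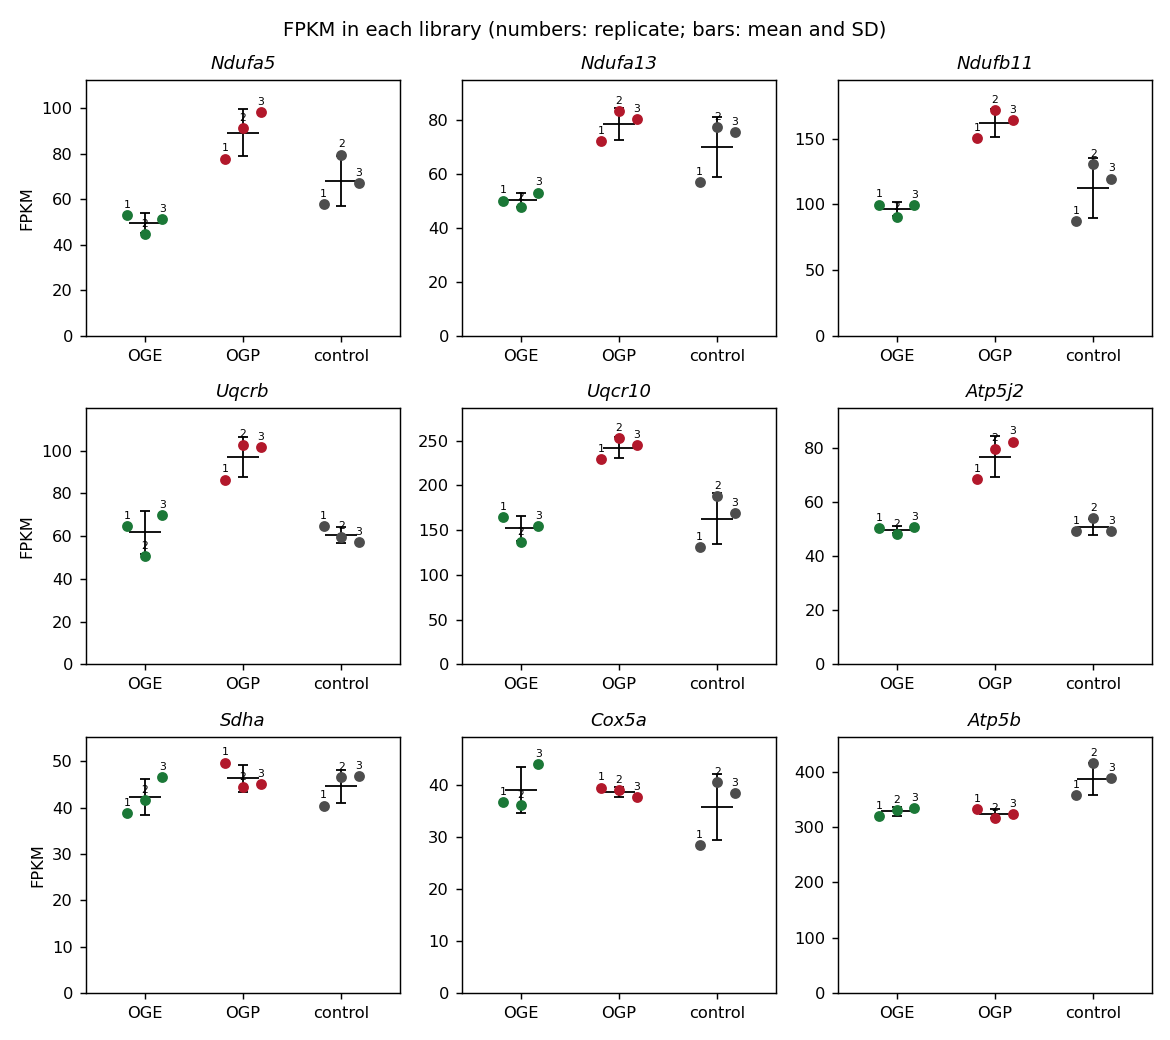
FPKM of 9 respiratory chain genes in each OGE, OGP and control library (points, numbered by replicate), with the mean and SD of 3 libraries. In the 6 genes of the upper rows, the DEGs of OGE against OGP, each OGE library lies below each OGP library, while Sdha and Cox5a overlap and Atp5b is highest in control.

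A further 7 genes differed by at least 1.5-fold between OGE and OGP without being called, namely Atp5e, Atp5k, Cox7a1, Ndufa1, Ndufa2, Ndufa3 and Uqcr11. Their standard errors were 0.27 to 0.60, compared with 0.09 to 0.14 for the 6 DEGs. Atp5k, subunit e of ATP synthase, is named after its values were seen, as the widest of these. It had 34.0, 23.8 and 63.9 FPKM in OGE, 78.2, 67.9 and 59.1 FPKM in OGP and 13.0, 69.6 and 70.9 FPKM in control. OGE replicate 3 and control replicate 1 each stood away from the rest of their group, and the log2 fold change of -0.86 in OGE against OGP had an SE of 0.60. In all 7 of these genes control replicate 1 was the lowest control library, as it was in 58 of the 78 genes tested. The matching share of all genes was not computed.

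The number of genes called depended on single libraries. Without control replicate 1, 50 of the 78 genes fell in OGE against OGP at the adjusted p alone, beside 14.96% of all genes, and 11 were DEGs, beside 5.23% of all genes. Without OGP replicate 2 the number at the adjusted p alone was 12 genes, beside 5.62% of all genes. Without OGP replicate 3 it was 13, beside 5.93%, and without OGE replicate 2 it was 16, beside 6.73%. The median log2 fold change stayed between -0.46 and -0.38 when any library was left out. All 6 DEGs of OGE against OGP kept an adjusted p of at most 0.05 with limma in each of 22 alternative settings, and Ndufa5 also kept a fold of at least 1.5 in each.

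The comparison of OGP with control asks how cells differed from untreated ones after deprivation and 24 h with PBS. Serum and medium may differ between these groups too, and their part cannot be told apart from that of deprivation. Here respiratory chain genes were more often higher than lower. The log2 fold change was positive for 62 of the 78 genes, with a median of 0.21 against 0.01 over all genes tested. With limma 6 genes rose as DEGs and none fell, where 6.38% of all genes rose and 5.74% fell. At the adjusted p alone 19 of 78 genes, or 24.4%, rose and 1 fell, against 13.8% and 16.0% of all genes. In 26 genes every OGP library was above every control library, which was the case for 20.3% of all genes, and in 2 every OGP library was below, as in 22.6% of all genes. Medians by complex were 0.44 in complex IV, 0.31 in complex V, 0.19 in complex I, 0.18 in complex III and 0.08 in complex II.

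Of the 6 DEGs, 4 belong to complex V by name and 2 to complex III. Uqcrb rose by 0.67 on the log2 scale (SE 0.13, limma adjusted p = 0.00423), Uqcrh by 0.63 (SE 0.15, limma adjusted p = 0.0122), Atp5mpl by 0.63 (SE 0.14, limma adjusted p = 0.00835), Atp5l by 0.61 (SE 0.10, limma adjusted p = 0.00229) and Atp5j2 by 0.59 (SE 0.09, limma adjusted p = 0.00130). For each of these 5 genes the values above show every OGP library over every control library. Atp5s, a factor that couples the parts of ATP synthase (chr12:69724950-69744660), was the sixth. It had 4.92, 4.87 and 4.55 FPKM in OGE, 4.73, 6.35 and 6.18 FPKM in OGP and 3.37, 3.70 and 3.14 FPKM in control, so that both deprived groups lay above control. Its log2 fold change in OGP against control was 0.67 (SE 0.11, limma adjusted p = 0.00266). The 6 genes of complex I that rose at the adjusted p alone were Ndufa4, Ndufa6, Ndufa7, Ndufb9, Ndufb11 and Ndufs1, and complex IV gave Cox6c, Cox7a2, Cox7a2l, Cox7b and Cox7c, the 5 genes that also fell in OGE against OGP. Uqcr10 of complex III and Atp5g2 of complex V complete the 19. Atp5b was the gene that fell, by 0.25 on the log2 scale (SE 0.08, limma adjusted p = 0.0416).

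Control replicate 1 bears on this comparison. Without it the median over the 78 genes was 0.06, and 47 of them were positive. At the adjusted p alone 21 genes then rose and 10 fell, where 17.9% of all genes rose and 20.5% fell. DEGs then numbered 3 higher and 2 lower, beside 7.40% and 7.04% of all genes. Without control replicate 2, in which the summed level of the chain was the highest of the control libraries, the median was 0.29 and 15 genes were DEGs, all higher, beside 6.39% of all genes. Without OGP replicate 3 there were 3 DEGs, all higher, beside 5.06% of all genes, and without OGP replicate 1 there were 14, all higher, beside 6.56%. Among the 6 DEGs, Uqcrh missed the adjusted p in 1 of 22 alternative settings (limma adjusted p = 0.0521), and the other 5 passed it in each.

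In OGE against control, the comparison of vesicle-treated cells with cells that were never deprived, no respiratory chain gene was a DEG, beside 5.14% of all genes higher and 6.33% lower. The median log2 fold change was -0.18 and 67 of the 78 genes were negative. At the adjusted p alone limma called 4 genes lower and 1 higher, or 5.13% and 1.28%, against 13.1% and 11.7% of all genes. Every OGE library was below every control library in 10 genes, which held for 19.6% of all genes, and above in 2, which held for 18.6%. The lower genes were Ndufa13 at -0.46 (limma adjusted p = 0.0220), Ndufa5 at -0.44 (0.0381), Ndufa9 at -0.29 (0.0459) and Sdhc at -0.33 (0.0160). Atp5s was the higher one, at 0.44 (limma adjusted p = 0.0215). The number of calls in this comparison depended on single libraries. Without control replicate 1, 37 of the 78 genes were lower at the adjusted p alone, where 20.5% of all genes were. Then 14 were DEGs, all lower, beside 8.32% of all genes, and the median was -0.31. Without OGE replicate 1 no gene was called lower, beside 8.66% of all genes. Without control replicate 2 none was either, beside 10.0% of all genes, and the median was -0.09.

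Side by side, 59 of the 78 genes had their highest group mean in OGP, among them 25 of 36 in complex I, 3 of 4 in complex II, 7 of 8 in complex III, 10 of 13 in complex IV and 14 of 17 in complex V. Of the 19 genes that rose in OGP against control, 17 fell in OGE against OGP, and the 2 that did not were Ndufs1 and Atp5s. These comparisons share the OGP libraries, so a high OGP value moves both, and the count is given without a test. By the adjusted p alone 33 genes were called in at least 1 of the 3 comparisons and 45 in none. Of all genes tested, 20.8% were called for OGE against OGP, 29.8% for OGP against control and 24.8% for OGE against control. Shares of all genes that match the counts of 59, 17 and 33 are not given here. Whether those counts exceed the background was thus not tested. Summed over complex IV, the level was 1555, 1463 and 1681 FPKM in OGE, 1969, 2080 and 2109.9 FPKM in OGP and 1423, 1998 and 1805 FPKM in control. Summed over complex V it was 1476, 1424 and 1532 FPKM in OGE, 1748, 1849 and 1869 FPKM in OGP and 1455, 1885 and 1742 FPKM in control. In both complexes OGE and OGP were separate and the control libraries spanned nearly the whole range.

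Respiratory chain genes are short, and short genes as a class moved in the same direction. The median deposited gene length was 1631 bases for the 78 genes and 4435 bases for all protein-coding genes tested. In OGE against OGP the median log2 fold change of respiratory chain genes up to 1000 bases was -0.56, compared with -0.39 for all 312 protein-coding genes of that length. Above that and up to 2000 bases the medians were -0.46 and -0.20, then up to 4000 bases -0.27 and -0.06, and over 4000 bases -0.22 and 0.09. Respiratory chain genes thus had the lower median in each length class, and within them the decline was smaller in the longer classes. In OGP against control the medians by rising length were 0.37, 0.27, 0.11 and 0.11 for respiratory chain genes and 0.27, 0.12, 0.02 and -0.08 for all protein-coding genes. When a smooth trend with gene length was removed from each library, 22 of the 78 genes fell in OGE against OGP at the adjusted p alone, beside 9.51% of all genes, the median was -0.30, 73 genes were negative, and Ndufa5 was the only DEG left, beside 4.17% of all genes. In OGP against control 19 genes then rose, beside 14.3% of all genes, 2 of them as DEGs, beside 5.63%, with a median of 0.13. The part of gene length in these differences was not tested beyond this fit, and RNA integrity and fragment size were not analysed here.

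**Figure D4:**
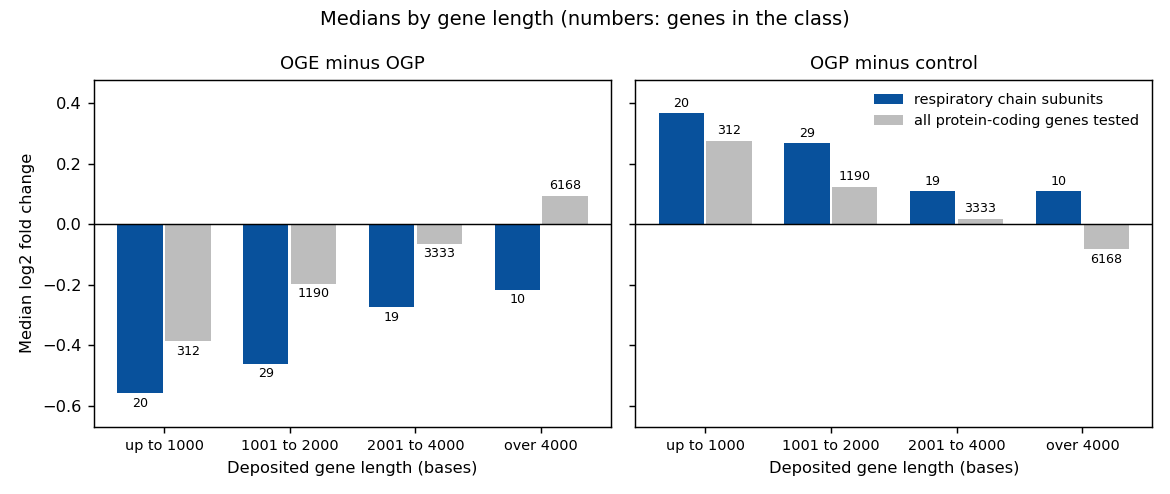
Median log2 fold change by class of deposited gene length (bars, with the number of genes) for respiratory chain genes and for all protein-coding genes tested, in OGE minus OGP and in OGP minus control. In OGE minus OGP the bars of respiratory chain genes lie lower in all 4 classes, and both sets are lowest up to 1000 bases, at -0.56 and -0.39.

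The same held library by library. The median deviation of the 78 genes from their 9-library mean was -0.17, -0.26 and -0.09 (log2) in OGE, 0.12, 0.26 and 0.28 in OGP and -0.29, 0.19 and 0.03 in control. For all protein-coding genes up to 1000 bases it was -0.15, -0.23 and -0.08 in OGE, 0.16, 0.24 and 0.26 in OGP and -0.28, 0.17 and 0.03 in control. The libraries in which the respiratory chain stood high were those in which short genes stood high, control replicate 1 included.

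**Figure D5:**
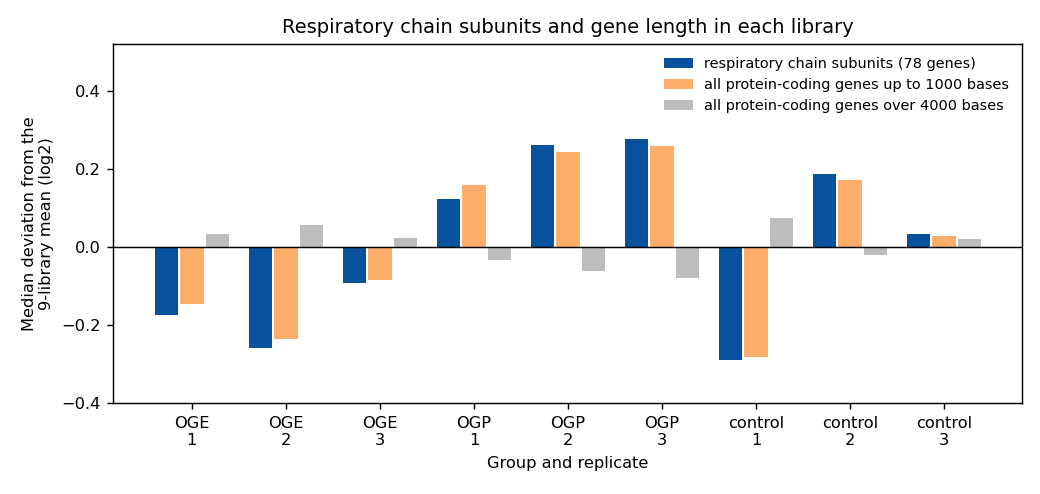
Median deviation from the 9-library mean (log2) in each OGE, OGP and control library, for the 78 respiratory chain genes, for all protein-coding genes up to 1000 bases and for those over 4000 bases. Control replicate 1 and OGE replicate 2 are lowest for the respiratory chain, at -0.29 and -0.26, and the bars of short genes follow the same order closely.

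Reads of these genes can also be shared with other gene models. Of the 85 genes, 24 overlap another gene model with a mean of at least 0.5 FPKM, 21 of them one on the opposite strand. The table names 12 processed pseudogenes after genes of this family, of which 5 passed 0.5 FPKM, up to 29.6 FPKM for Ndufab1-ps. How reads were split between such copies was not tested.

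Of 13 subunits encoded in the mitochondrial genome none was called in OGE against OGP, where 11 were negative with a median of -0.16, and the groups overlapped for all 13. In OGP against control 10 of the 13 rose as DEGs, beside 6.38% of all genes, with a median of 1.01, and in OGE against control 6 did, beside 5.14%, with a median of 0.85. mt-Co3, a core subunit of complex IV, measured 23.2, 14.3 and 19.4 FPKM in OGE, 24.4, 19.4 and 19.1 FPKM in OGP and 11.1, 6.24 and 10.8 FPKM in control. Both deprived groups were above control without overlap, at 1.15 for OGP against control (SE 0.23, limma adjusted p = 0.00627). Nuclear and mitochondrial genes were not tested against each other.

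Of 49 assembly factors, which build the complexes without staying in them, 46 were tested. In OGE against OGP 4 fell, or 8.70% against 10.2% of all genes, and 1 rose, with a median of -0.19. In OGP against control 6 rose, or 13.0% against 13.8% of all genes, and 2 fell, with a median of 0.07. Both shares were near those of all genes, but the list leaned lower in OGE against OGP. There 36 of the 46 were negative. In 22 of the 46 genes every OGE library lay below every OGP library, a larger share than the 22.0% of all genes for which this held. Sdhaf4, an assembly factor of complex II, had 11.3, 8.92 and 10.1 FPKM in OGE, 17.1, 20.9 and 19.8 FPKM in OGP and 10.9, 16.0 and 13.1 FPKM in control. OGP was above every other library, and the decline in OGE against OGP of -0.90 was the only DEG of this list in that comparison (limma adjusted p = 0.00271). Ecsit, which serves complex I assembly, fell in OGP against control as a DEG, with 5.62, 5.20 and 5.50 FPKM in OGP and 8.51, 9.70 and 8.73 FPKM in control. Ndufaf2 and Cox16 rose as DEGs in that comparison, where 6.38% of all genes rose and 5.74% fell as DEGs.

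Among nuclear regulators of respiratory genes, 11 of 13 were tested, and Ppargc1a and Ppargc1b lay below the filter. In OGE against OGP only Pprc1, a relative of these coactivators, rose, at 0.57, and Tfb1m, a mitochondrial ribosomal RNA methyltransferase, fell, at -0.49, both below the fold threshold. Of all genes 10.6% rose and 10.2% fell there at the adjusted p alone. In OGP against control 4 of the 11 rose and 3 fell at the adjusted p alone, beside 13.8% and 16.0% of all genes. Tfb1m rose as a DEG in OGP against control, beside 6.38% of all genes. It had 3.61, 3.75 and 3.76 FPKM in OGP and 2.36, 1.60 and 1.89 FPKM in control. In OGE against control Pprc1, Gabpb2 and Tfb2m rose as DEGs, beside 5.14% of all genes. The factors whose motifs were counted above did not move together. Nrf1 was not called in any comparison, Gabpa rose against control in both OGP and OGE, and Yy1 fell in both at the adjusted p alone, with 25.4, 26.0 and 23.3 FPKM in OGE, 22.9, 22.8 and 22.3 FPKM in OGP and 31.1, 32.7 and 31.1 FPKM in control.

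Of 6 tested genes that hypoxia is known to induce in mitochondria, 4 fell in OGP against control at the adjusted p alone, beside 16.0% of all genes. Among them 3 were DEGs, beside 5.74% of all genes, and the median over the 6 was -0.60. Fam162a measured 117, 114 and 120.5 FPKM in OGE, 90.8, 106 and 100.0 FPKM in OGP and 162, 241 and 192 FPKM in control, and both deprived groups lay below control. Bnip3, a mitophagy receptor, had 46.6, 50.9 and 39.5 FPKM in OGE, 26.1, 32.7 and 33.0 FPKM in OGP and 64.0, 55.1 and 47.5 FPKM in control, and rose in OGE against OGP by 0.57 at the adjusted p alone (limma adjusted p = 0.0215). Of 6 tested carriers and porins, Slc25a4, an ADP/ATP carrier, fell in OGE against OGP at -0.44 and its relative Slc25a5 rose at 0.33, so that the copies moved in opposite directions. Cyc1, Cycs and Ndufab1, the parts of the chain that the name pattern misses, were not called in OGE against OGP, at 0.04, -0.11 and 0.01. In OGP against control Cyc1 fell without overlap, at -0.36 (limma adjusted p = 0.0483), against the direction of most of the chain. Cycs and Ndufab1, at 0.10 and 0.14, were not called there.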

How the data were processed

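RNA of 9 HT22 libraries was sequenced in 150 bp paired ends by the authors, aligned with HISAT2 2.0.5 to mm10 and counted per gene with featureCounts. The deposited FPKM were made by the authors with a tool not given in the sources used here, and neither the strand setting nor the pooling of fragments is stated. FPKM times gene length gave whole reads within 0.1 of a step for 100% of positive values, hence the depth per library.

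Genes averaging 0.5 FPKM or more entered limma 3.58.1 (R 4.3.3, trended prior variance) on log2(FPKM + 0.5), with 3 groups in 1 model of 9 libraries. The Benjamini-Hochberg adjustment covered all 13245 genes. DEGs had a fold of 1.5 or more and an adjusted p up to 0.05. The model was tested on simulated data. Genes were given per library if they were DEGs, had the 2 smallest p of a complex in OGE against OGP or OGP against control, were alternative copies or chosen core subunits, and other lists gave at most 3 genes each. Members, lists and rules were chosen with earlier results of these data known. Alternatives were other pseudocounts, filters, scalings, thresholds, libraries left out, a replicate block and voom on recovered reads. Leaving out control replicate 1 together with OGE replicate 3, and a fit without a gene-length trend (lowess, span 0.3) were added after seeing the data. RNA was extracted with TRIZOL per the paper and with an RNeasy kit per the labels, followed by poly-T selection. The DESeq2 results of the authors were not used. The values of 1 gene that the naming rule takes are not reported here.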

Additional observations from a re-analysis of the deposited data

How the results depend on the processing

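Signs were followed for the DEGs, the genes with the smallest p of a complex, the alternative copies and the chosen core subunits. Among these no called value changed sign under any of the alternatives run. Other called genes were not followed singly. Of the DEG counts among respiratory chain genes, those of OGE against OGP, OGP against control and OGE against control (6, 6 and 0) became 29, 20 and 5 with no fold threshold, where 20.8%, 29.8% and 24.8% of all genes were called, and 27, 17 and 4 with a looser one, where 18.5%, 26.3% and 22.4% were. In OGE against OGP quantile normalization gave 1 DEG and 18 genes lower at the adjusted p alone, beside 4.48% and 9.38% of all genes, and the 6 libraries of the pair by themselves gave 11 and 48, beside 5.25% and 14.1%. Lower genes in OGE against control, 4 in number, became 2 with no filter, 2 under quantile normalization and 1 with 6 libraries, beside 5.34%, 12.3% and 10.2% of all genes, and protein-coding genes alone gave 1 lower DEG there, beside 7.13%. Without the gene-length trend the DEGs were 1, 2 and 1 in the 3 comparisons, beside 7.41%, 11.2% and 11.4% of all genes in either direction. Without control replicate 1 and OGE replicate 3 together, OGE against OGP gave 19 DEGs and 59 lower genes, beside 5.81% and 15.03% of all genes, and OGE against control 20 DEGs and 41 lower genes, beside 9.72% and 21.8%, with a median of -0.33. The causes were not tested.

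With single libraries left out, DEGs numbered 5 to 18 in OGE against OGP, 3 to 15 in OGP against control and 0 to 14 in OGE against control, beside 6.71% to 8.92%, 10.1% to 14.4% and 10.1% to 15.2% of all genes in either direction. Lower genes numbered 12 to 50 in OGE against OGP and 0 to 37 in OGE against control, beside 5.62% to 14.96% and 8.66% to 20.5% of all genes, and higher genes in OGP against control 13 to 25, beside 8.50% to 17.9%. Medians ranged over -0.46 to -0.38, 0.06 to 0.29 and -0.31 to -0.09 in the 3 comparisons. Where a group was left with 2 libraries, the fit pooled the spread over groups.

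Replicate numbers were not used as pairs in the main fit. Same-numbered libraries correlated between -0.18 and 0.32 in their deviations from group means, and differently numbered ones between -0.35 and 0.26. Whether libraries with the same number share a batch was not tested. A replicate block gave 23 lower genes and 6 DEGs in OGE against OGP, 17 higher genes and 6 DEGs in OGP against control, and 2 lower genes and 0 DEGs in OGE against control, where 7.97% of all genes were lower, 11.7% higher and 10.96% lower in that order. Depth limits the genes of low level, such as Cox6a2 and Cox7a1, with means of 1.22 and 1.27 FPKM.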
